A study of Mus musculus with 12 samples.

Results

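The immunoproteasome and class I peptide-loading genes were examined as a set of 10 genes, chosen by symbol from the table of gene levels: Psmb8, Psmb9, Psmb10, Psme1, Psme2, Tap1, Tap2, Tapbp, Tapbpl and Erap1. All 10 were among the 29428 genes of the table, and all 10 were among the 16127 genes that reached at least 0.5 TPM, a level per gene length and library total, in at least 3 libraries and were tested. The libraries came from 2 immortalized mouse striatal cell lines derived from huntingtin knock-in embryos, STHdhQ7/Q7 (7 glutamines in huntingtin, the wild-type line) and STHdhQ111/Q111 (111 glutamines, the Huntington's disease line). Each line was sequenced untreated (Q7-C, Q111-C) and after 24 h with 100 ng/mL interferon-gamma (IFNγ) together with 5 µg/mL lipopolysaccharide (LPS) (Q7-T, Q111-T), with 3 libraries in each of the 4 groups. Each genotype was represented by a single line, so genotype and line cannot be told apart, and neither can the shares of IFNγ and LPS, which were given together. The study calls the libraries of a group biological replicates. Neither it nor the labels say that they came from separate cultures, so the p-values measure the spread between these libraries, which may be technical.

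Proteasomes cut intracellular proteins into peptides. In the immunoproteasome the catalytic subunits Psmb5, Psmb6 and Psmb7 of the 20S core are replaced by Psmb8, Psmb9 and Psmb10, which changes the peptides that are made, and the PA28 cap of Psme1 and Psme2 opens the core. The Tap1-Tap2 transporter carries peptides into the endoplasmic reticulum, Erap1 trims them there, and tapasin (Tapbp) and its relative Tapbpl help load and select them on class I molecules, which are made of a heavy chain and B2m. IFNγ is the classical inducer of this pathway through Irf1 and Nlrc5, among others, and cells of the healthy brain, neurons above all, keep the pathway low.

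Each library held between 57505990 and 96417834 estimated counts. The authors' TPM matched the union of all annotated exons as the gene length, to within 1% for 93.3% of 15366 genes, so a gene with many annotated isoforms has a lowered TPM. On the TPM scale the median of all genes tested was higher in the Q111 line, by 0.27 on the log2 scale between the untreated groups and by 0.34 between the treated groups. With TMM scaling in edgeR, used for every fold change and its test unless another is named, those medians were -0.02 and -0.03. In Q7-C replicate 1, Q7-T replicate 2 and Q111-T replicate 2, levels fell with gene length by 0.294, 0.35 and 0.182 log2 units per doubling of length, relative to the other 2 libraries of their group. Of the neuronal genes Snap25 and Syt1 did not exceed 0.0168 and 0.025 TPM in any library and the striatal neuron gene Bcl11b did not exceed 0.0407 TPM, while Tubb3 and Map2 of the neuron list reached 83.6 and 10.7 TPM, Foxp1 and Penk of the striatal neuron list reached 12.8 and 5.42 TPM, and the mesenchymal gene Vim lay between 1147 and 2651 TPM. The leukocyte gene Ptprc did not exceed 0.00642 TPM and the macrophage gene Adgre1 did not exceed 0.0463 TPM in any group, while Tmem119 of the microglia list lay between 2.96 and 20.2 TPM and made up most of that list's sum. Of the macrophage and microglia list, 7 genes were in the table and 1 was tested, and their summed TPM ranged from 12.1 to 13.4 in Q7-C and 3.11 to 3.49 in Q7-T, against 17.7 to 20.5 in Q111-C and 5.0 to 5.8 in Q111-T. The summed TPM of the neuron list ranged from 22.4 to 27.7, 58.5 to 86.5, 10.0 to 12.6 and 31.3 to 35.4 in the same order, and that of the mesenchymal list from 4240.0 to 4840.0, 3290.0 to 3710.0, 3670.0 to 3830.0 and 1500.0 to 1620.0. That of the striatal medium spiny neuron list ranged from 6.65 to 8.33, 9.58 to 11.2, 14.1 to 18.7 and 13.6 to 15.2. The astrocyte list ranged from 1.05 to 1.98, 1.33 to 1.85, 9.01 to 11.1 and 4.16 to 5.24, and the dendritic cell list from 0.165 to 0.596, 0.169 to 0.487, 1.31 to 1.48 and 0.954 to 1.78, so that both were higher in the Q111 line, untreated and treated, without overlap. The endothelial list, of whose genes none was tested, was higher in the treated libraries of both lines without overlap, at 0.224 to 0.361, 0.397 to 1.65, 0.0686 to 0.479 and 0.882 to 1.65 in the same order of groups. Single genes differed from these sums. In Q7-C and Q111-C the mesenchymal gene Acta2 had means of 1670 and 43.74 TPM. Col1a1 was higher in Q111-C (265.1 and 790.6), as were Col1a2 (14.6 and 250.2), Col3a1 (27.65 and 136.3) and Pdgfrb (39.15 and 70.03). Of the astrocyte list Slc1a3 was at 0.9015 and 9.863 TPM, while Aldh1l1 (0.3642 and 0.0384) and Gfap (0.0995 and 0.05904) were lower in Q111-C. The lists moved with treatment or line, and their part in the results was not tested. In bulk libraries fewer cells of a type and less RNA per cell cannot be told apart.

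Of the 10 genes, 5 lie on chromosome 17 in GRCm38, the build of the files, and all 10 are annotated as protein-coding. Tapbp (chr17:33915899-33926197) is followed by Psmb9 (chr17:34181987-34187764), Tap1 (chr17:34187553-34197225), Psmb8 (chr17:34197721-34201454) and Tap2 (chr17:34203527-34216321). The others are Psmb10 (chr8:105935735-105938104), Psme1 (chr14:55578123-55581528), Psme2 (chr14:55587441-55591113), Tapbpl (chr6:125223933-125231860) and Erap1 (chr13:74639568-74693201). Psmb9 and Tap1 are transcribed away from each other, and their annotated ends overlap. The library kit kept strand, but whether counting used it is not given in the sources used here, so reads in that overlap are uncertain. The same holds for Psmb8 and Tap2 with the opposite-strand gene Gm20496, for Tap2 with Gm15821, for Psmb10 with Gm16156, for Tapbp with Gm19412, for Psme1 with Emc9, for Tapbpl with Vamp1 and for Erap1 with Cast, and the GENCODE model of Tapbp overlaps Zbtb22 on the same strand.

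Promoter sequence from RefSeq (GRCm38.p6) matched 8 of the 10 genes, all but Tap2 and Tapbpl. The motifs below were searched on both strands in the 250 bases before each RefSeq start site: GAAANNGAAA (similar to the interferon-stimulated response element), TTCNNNGAA (the GAS element, the IFNγ-activated site), GGGNNNNNCC (similar to the NF-κB site), GGGCGG (the GC box, which can overlap the former) and CCAAT. The first was in 0 of the 8 genes, against 2.98% of 32851 windows of the same length. TTCNNNGAA was in 1 of 8, Psmb8, against 7.02% of windows. GGGNNNNNCC was in 4 of 8 against 45.8%, GGGCGG in 5 of 8 against 32.7%, and CCAAT in 3 of 8 against 33.8%. The stretches below are printed 5′ to 3′ with the match in capitals: the GAS-type match of Psmb8, because Psmb8 is the gene of the set that holds this motif and its response differed between the lines, the GC box and CCAAT box between the Psmb9 and Tap1 start sites, because these genes share this interval (which also holds 5 matches of GGGNNNNNCC), and the GC box of Tapbp, the gene with the highest TPM.
Psmb8, GAS, 97 to 89 bases before the start, chr17:34198088-34198116, plus strand: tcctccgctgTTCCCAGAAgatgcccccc
Tap1, GC box, 176 to 171 bases before the start, chr17:34187370-34187395, plus strand: gactgaggccCCGCCCcatcatcgcg
Tap1, CCAAT box, 222 to 218 bases before the start, chr17:34187324-34187348, plus strand: gctcggctttCCAATcagcggctgc
Tapbp, GC box, 51 to 46 bases before the start, chr17:33919417-33919442, plus strand: cacagcaggaGGGCGGagtctaggct
The Tap1 matches lie also before Psmb9 on the other strand, where the GC box is 55 to 50 bases and the CCAAT box 8 to 4 bases before the Psmb9 start. For Psmb8, Psmb9, Psme1, Tapbp and Erap1 the whole window lies within the gene span given above. Bases before the annotated 5′ ends of these genes were not searched. A match is a description of the letters in these windows and not a bound site.

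IFNγ/LPS raised all 10 genes in both lines. In Q7-T vs. Q7-C, 10 of 10 were called higher, where called means a change of 2-fold or more whose adjusted p is below 0.05. Of all genes tested, 2.93% were called higher and 1.11% lower in that comparison. In Q111-T vs. Q111-C, 10 of 10 were again called higher, against 8.28% of all genes higher and 2.96% lower. In neither line did the treated libraries of any of the 10 genes overlap the untreated ones, and a rise without overlap was seen for 8.23% and 25.2% of all genes. The median log2 fold change of the 10 genes was 3.93 in Q7 cells and 2.66 in Q111 cells, beside 0.00 and -0.01 for all genes tested. Folds ran from 6.48 (Tapbpl) to 180.0 (Psmb8) in Q7 cells and from 2.79 (Psme2) to 65.3 (Psmb9) in Q111 cells. None of these calls was lost under any alternative or with any single library left out.

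**Figure D1:**
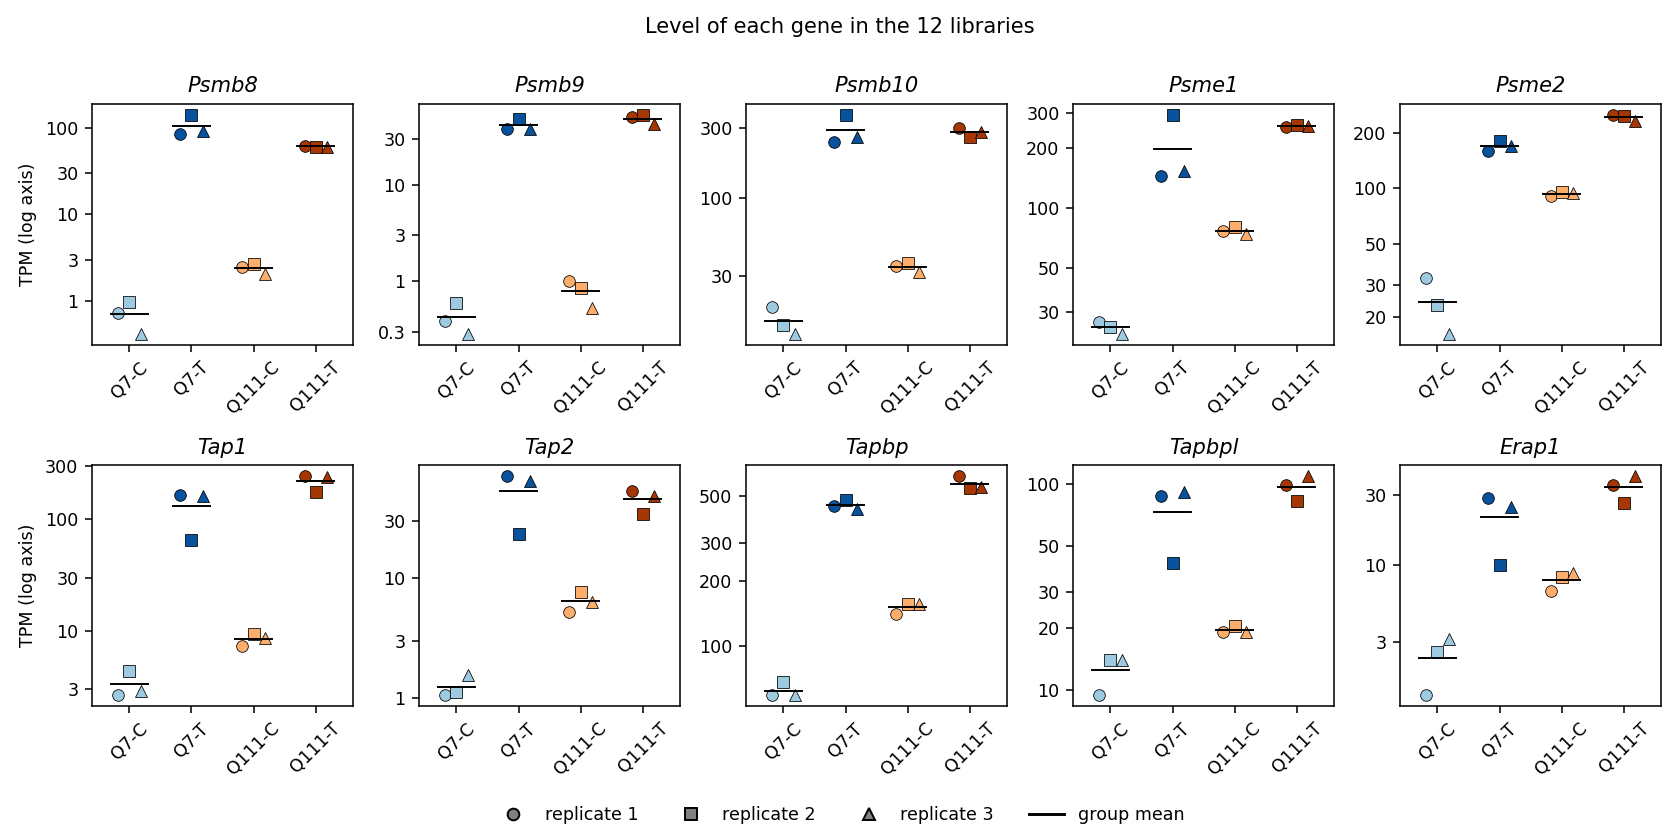
TPM of each gene in the 12 libraries on a log axis, 1 panel per gene with its own range, with 3 libraries per group shown as points and the group mean as a line. In all 10 panels the treated libraries lie above the untreated libraries of the same line, and Q7-C has the lowest mean.

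Of the catalytic subunits, Psmb8 and Psmb9 had the largest folds of the 10 genes in Q7 cells. Psmb8 (LMP7, the inducible chymotrypsin-like subunit) was at 0.729, 0.978 and 0.424 TPM in Q7-C and at 84.6, 139.5 and 92.2 TPM in Q7-T. In Q111-C it was at 2.49, 2.68 and 2.06 TPM and in Q111-T at 61.5, 60.2 and 60.6 TPM. No pair of the 4 groups overlapped for Psmb8, and the order from lowest to highest was Q7-C, Q111-C, Q111-T, Q7-T. Its log2 fold change was 7.49 ± 0.51 (SE) in Q7 cells (adjusted p = 2.23e-06) and 4.76 ± 0.45 in Q111 cells (adjusted p = 1.78e-05). Without Q7-T replicate 2 the rise in Q7 cells was 6.90 ± 0.33. In Q7-C the lowest library held 63 estimated counts of Psmb8, which makes the denominator of the larger fold the less precise one.

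Psmb9 (LMP2) was the lowest of the 3 inducible subunits in TPM. It was at 0.393, 0.602 and 0.286 TPM in Q7-C and 37.8, 48.6 and 38.4 TPM in Q7-T. In Q111-C it was at 1.01, 0.861 and 0.53 TPM, and in Q111-T at 50.2, 53.2 and 43.1 TPM. The untreated libraries of the lines overlapped, as did the treated ones, so the groups fell into a low and a high pair. Psmb9 rose 115.0-fold in Q7 cells and 65.3-fold in Q111 cells, with log2 fold changes of 6.84 ± 0.45 (adjusted p = 1.81e-06) and 6.03 ± 0.43 (adjusted p = 2.48e-06), and in Q111 cells it had the largest fold change of the 10 genes.

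Psmb10 (MECL-1, the inducible trypsin-like subunit) was already present in untreated cells. Its TPM was 18.3, 13.9 and 12.1 in Q7-C, and 34.6, 36.4 and 31.8 in Q111-C. After treatment it was 241.9, 368.4 and 260.9 in Q7-T and 298.7, 263.3 and 283.4 in Q111-T. The treated groups overlapped and the untreated ones did not. Its log2 fold changes were 4.54 ± 0.40 in Q7 cells (adjusted p = 2.09e-05) and 3.14 ± 0.37 in Q111 cells (adjusted p = 0.000119).

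The constitutive counterparts did not pass the test in either line. The log2 fold changes of Psmb5, Psmb6 and Psmb7 were 0.58 ± 0.36, 0.38 ± 0.36 and 0.47 ± 0.33 in Q7 cells (adjusted p = 0.529, 0.715 and 0.58), and without Q7-T replicate 2 they were -0.07, -0.19 and -0.08. In Q111 cells they were -0.50 ± 0.36, -0.16 ± 0.36 and -0.12 ± 0.33 (adjusted p = 0.417, 0.841 and 0.881). In Q111 cells Psmb5 was lower after treatment without overlap on the TMM and TPM scales, and Psmb6 and Psmb7 on the TPM scale. Together the constitutive subunits reached 367 ± 61.6 TPM (SD, n = 3) in Q7-C and 418 ± 111 in Q7-T, against 515 ± 26.3 in Q111-C and 407 ± 11.6 in Q111-T. The summed TPM of the 3 inducible subunits was 15.9 ± 3.32, 437 ± 104, 37.4 ± 2.84 and 391 ± 17.4 in the same order. The lower constitutive sum of Q111-T adds to the rise of the inducible share in that line, described next.

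The inducible share, Psmb8, Psmb9 and Psmb10 as a percentage of the TPM of all 6 catalytic subunits, is a ratio within each library, so that the scaling between libraries drops out. It was 4.25%, 4.28% and 3.86% in Q7-C and 51.4%, 50.5% and 51.7% in Q7-T. In Q111-C it was 6.53%, 7.37% and 6.45%, and in Q111-T 50.7%, 47.3% and 49.1%. The treated libraries of each line thus lay far above its untreated ones, by 47.1 points in Q7 cells and 42.2 points in Q111 cells. A two-sided exact permutation test gave p = 0.1 for each, the smallest value that 3 libraries against 3 can give. Untreated, the share in Q111-C exceeded that in Q7-C by 2.65 points without overlap (exact p = 0.1). Treated, the share overlapped between the lines, with a difference of -2.21 ± 1.85 points (SD of the difference, exact p = 0.2).

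The pairs of subunits differed in how far the balance moved. Psmb8 made up 0.877% ± 0.344 (SD, n = 3) of the Psmb8 and Psmb5 TPM in Q7-C and 52.0% ± 0.849 in Q7-T, against 1.78% ± 0.27 in Q111-C and 41.0% ± 1.39 in Q111-T. The treated lines did not overlap in this pair (difference of -11.0 points, exact p = 0.1). Psmb9 made up 0.248% ± 0.112 of its pair with Psmb6 in Q7-C and 17.9% ± 1.45 in Q7-T, against 0.322% ± 0.0876 in Q111-C and 19.3% ± 1.25 in Q111-T, and the treated lines overlapped. Psmb10 made up 11.8% ± 1.24 of its pair with Psmb7 in Q7-C and 69.7% ± 0.473 in Q7-T, against 20.1% ± 1.22 in Q111-C and 70.8% ± 2.25 in Q111-T, and the treated lines again overlapped. These percentages rest on exon-union lengths, which relative to the longest protein-coding transcript are 2.08 times as long for Psmb8, 2.71 for Psmb9, 1.3 for Psmb10, 1.0 for Psmb5, 2.35 for Psmb6 and 2.95 for Psmb7. With the length of that transcript, an alternative chosen after seeing the data, the share of all 6 was 2.6% ± 0.165 in Q7-C and 43.5% ± 0.49 in Q7-T, against 4.46% ± 0.34 in Q111-C and 40.8% ± 1.43 in Q111-T.

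**Figure D2:**
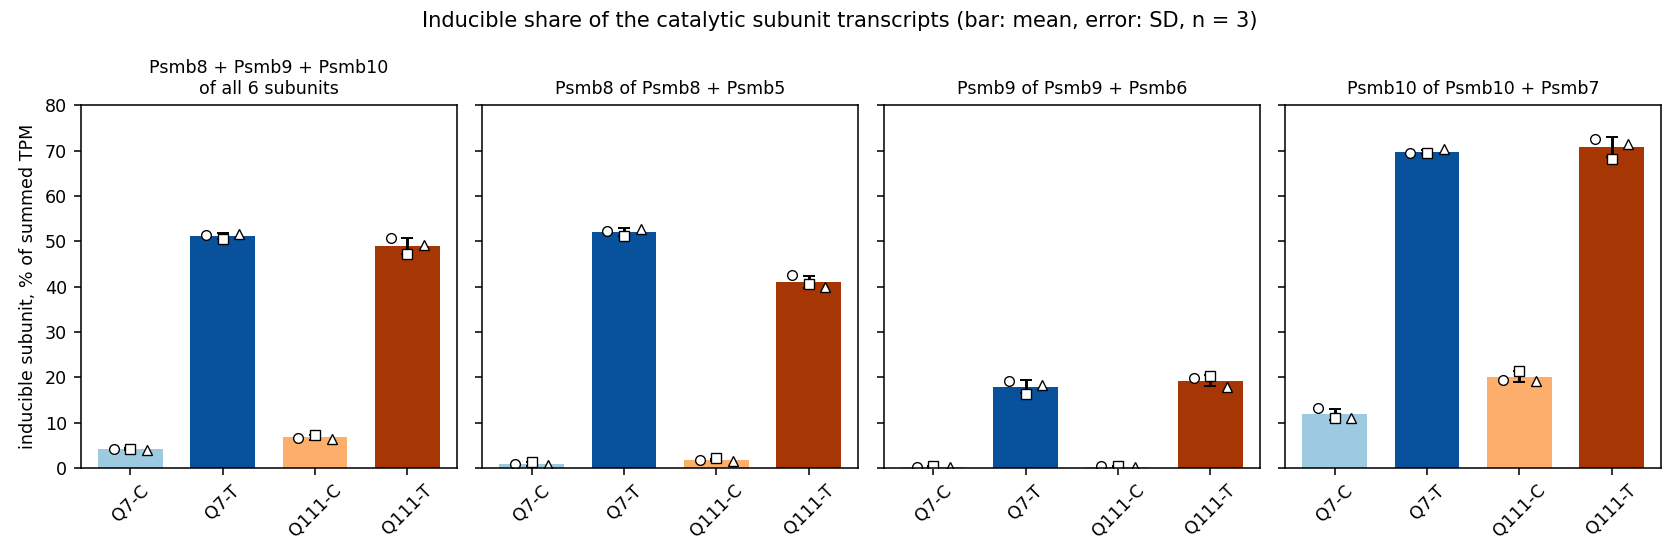
Inducible subunit as a percentage of summed TPM for all 6 catalytic subunits and for each pair, with bars for group means, error bars for SD (n = 3) and points for libraries. The share rose from at most 7.37% to between 47.3% and 51.7% in every treated library, and of the pairs Psmb8 with Psmb5 separated Q7-T from Q111-T.

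The PA28 subunits rose in both lines. Psme1 (PA28α) was at 26.7, 25.3 and 23.3 TPM in Q7-C and 145.6, 294.5 and 154.2 in Q7-T, against 76.3, 80.8 and 74.3 in Q111-C and 256.2, 261.7 and 259.1 in Q111-T. Replicate 2 stood well above the other Q7-T libraries, and the remaining groups were tight. Psme2 (PA28β) was at 32.4, 23.4 and 16.2 TPM in Q7-C and 160.0, 180.3 and 169.4 in Q7-T, against 90.7, 94.9 and 94.7 in Q111-C and 249.7, 245.6 and 231.0 in Q111-T. For both genes the treated and untreated libraries of a line stood apart, and so did Q7-C and Q111-C. Psme1 rose by 3.30 ± 0.42 on the log2 scale in Q7 cells (adjusted p = 0.000487) and 1.85 ± 0.40 in Q111 cells (adjusted p = 0.00687). Without Q7-T replicate 2 its rise in Q7 cells was 2.52 ± 0.18. Psme2 rose by 3.00 ± 0.36 (adjusted p = 0.000278) and 1.48 ± 0.34 (adjusted p = 0.00987), the smallest rise of the 10 genes in Q111 cells. The TPM of Psme1 divided by that of Psme2 gave 1.11 ± 0.308 (SD, n = 3) in Q7-C and 1.15 ± 0.418 in Q7-T, against 0.826 ± 0.0358 in Q111-C and 1.07 ± 0.0479 in Q111-T.

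Both transporter genes rose in both lines. Tap1 was at 2.67, 4.35 and 2.93 TPM in Q7-C and at 166.6, 64.9 and 161.7 TPM in Q7-T. In Q111-C it was at 7.31, 9.35 and 8.57 TPM and in Q111-T at 243.4, 175.0 and 238.6 TPM. No neighbouring groups overlapped, in the order Q7-C, Q111-C, Q7-T, Q111-T. Tap1 rose 42.6-fold in Q7 cells and 27.7-fold in Q111 cells (log2 fold changes 5.41 ± 0.24 and 4.79 ± 0.24, adjusted p = 2.07e-07 and 2.53e-07).

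Tap2 was at 1.05, 1.11 and 1.53 TPM in Q7-C and at 71.5, 23.4 and 65.8 TPM in Q7-T. In Q111-C it was at 5.22, 7.69 and 6.37 TPM and in Q111-T at 53.4, 34.6 and 49.1 TPM. The treated groups overlapped, and every Q111-C library was above every Q7-C library. Tap2 rose 46.2-fold in Q7 cells and 7.56-fold in Q111 cells (log2 fold changes 5.53 ± 0.28 and 2.92 ± 0.25, adjusted p = 2.43e-07 and 8.35e-06). The ratio of Tap1 to Tap2 TPM, taken within each library, was 2.54, 3.92 and 1.91 in Q7-C and 2.33, 2.77 and 2.46 in Q7-T. It was 1.4, 1.22 and 1.34 in Q111-C and 4.55, 5.05 and 4.86 in Q111-T. The ratio therefore overlapped between treated and untreated Q7 cells, while in Q111 cells the treated libraries were all above the untreated ones. In Q7-T replicate 2, where both genes were low, it was 2.77.

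Tapbp, the bridge between transporter and class I, had the highest TPM of the 10 genes in each group mean and the smallest spread relative to its mean within Q7-T. It was at 59.1, 67.7 and 59.2 TPM in Q7-C and 449.8, 476.8 and 436.0 in Q7-T, against 140.2, 157.1 and 157.1 in Q111-C and 616.2, 544.3 and 548.5 in Q111-T. On the TPM scale no groups overlapped. With TMM scaling the treated groups did overlap. Tapbp rose 8.63-fold in Q7 cells and 4.04-fold in Q111 cells (log2 fold changes 3.11 ± 0.24 and 2.02 ± 0.23, adjusted p = 6.4e-06 and 8.13e-05).

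Tapbpl (TAPBPR, a peptide editor outside the loading complex) had the most similar responses in the lines. It was at 9.51, 14.0 and 14.1 TPM in Q7-C and 87.4, 41.4 and 92.2 in Q7-T, against 19.2, 20.6 and 19.3 in Q111-C and 99.4, 83.4 and 109.4 in Q111-T. Replicate 2 was the lowest treated library in each line. The log2 fold changes were 2.70 ± 0.15 (adjusted p = 4.18e-07) and 2.40 ± 0.14 (adjusted p = 6.65e-07).

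Erap1, the trimming peptidase, was at 1.31, 2.56 and 3.17 TPM in Q7-C and 28.8, 10.1 and 24.9 in Q7-T, against 6.70, 8.26 and 8.83 in Q111-C and 35.1, 26.7 and 40.4 in Q111-T. Replicate 2 was again the lowest treated library in each line, and the treated groups overlapped. Erap1 rose 10.0-fold in Q7 cells and 4.57-fold in Q111 cells (log2 fold changes 3.33 ± 0.26 and 2.19 ± 0.24, adjusted p = 6.29e-06 and 6.82e-05).

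**Figure D3:**
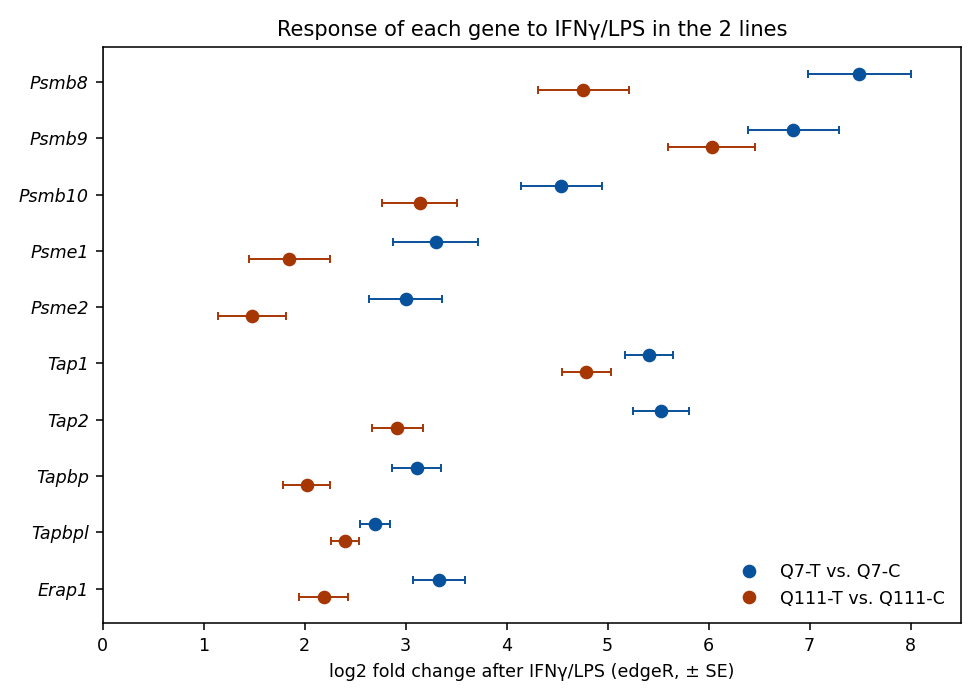
log2 fold change after IFNγ/LPS for each gene in Q7 cells (blue) and Q111 cells (brown), with SE from edgeR. All values are above 1, and for each gene the Q7 value is the larger, from 7.49 against 4.76 for Psmb8 to 2.70 against 2.40 for Tapbpl.

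Untreated, all 10 genes had a positive log2 difference in Q111-C vs. Q7-C, and 6 of 10 were called higher, against 7.62% of all genes higher and 7.61% lower. The 6 were Tap2 (2.06 ± 0.24, 4.18-fold, adjusted p = 8.9e-05), Psme2 (1.56 ± 0.34, 2.95-fold, 0.00593), Erap1 (1.49 ± 0.24, 2.80-fold, 0.000802), Psmb8 (1.41 ± 0.41, 2.66-fold, 0.0266), Psme1 (1.27 ± 0.39, 2.41-fold, 0.0383) and Tap1 (1.03 ± 0.20, 2.04-fold, 0.0033). Tapbp passed the adjusted p and stayed under 2-fold (0.95 ± 0.22, adjusted p = 0.00871). Psmb10 (0.83 ± 0.35, adjusted p = 0.117), Psmb9 (0.56 ± 0.38, 0.346) and Tapbpl (0.35 ± 0.14, 0.0948) did not pass. The untreated libraries of the lines did not overlap for 9 of the 10 genes, all but Psmb9, where 24.1% of all genes were higher without overlap on the same TMM scale. The median log2 difference of the 10 genes was 1.15, beside -0.02 for all genes.

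Tap2, Psme2 and Erap1 were called in Q111-C vs. Q7-C under every alternative and with every library left out. The count fell from 6 to 3 without Q7-C replicate 3 and without Q111-C replicate 2, which ended the calls of Psmb8, Psme1 and Tap1. Psme1 was also lost without Q7-C replicate 2, Q111-C replicate 1 or Q111-C replicate 3 (adjusted p = 0.105, 0.0792 and 0.072), and Psmb8 without Q111-C replicate 1 (0.0633). Psmb10 was gained without Q7-C replicate 1 (1.22), and Tapbp without Q7-C replicate 1 or Q111-C replicate 1 (1.09 and 1.02). It was 8 with limma on log2(TPM + 0.5), where Psmb10 (1.20 ± 0.19) and Tapbp (1.28 ± 0.11) were called too, and also 8 without the 3 length-dependent libraries. It was 5 with limma on quantile-normalized values, where Psmb8 (0.98) and Tap1 (0.87) lost their calls and Tapbp (1.17) gained one, and length offsets ended the call of Tap1 (0.97) and gave one to Psmb10 (1.00). The direction was positive for all 10 genes in every one of these fits.

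Between the treated lines, Q111-T vs. Q7-T, 0 of 10 were called higher, against 13.3% of all genes, and 1 of 10 was called lower, against 11.2%. The gene called was Psmb8, 2.51-fold lower in Q111-T (-1.33 ± 0.39, adjusted p = 0.0186). It was -0.71 (adjusted p = 0.0565) without Q7-T replicate 2, and between -0.87 and -0.75 with limma on the TPM scale. The call was thus lost without that library and in all 4 limma fits, while the TPM of the treated groups did not overlap. It was also lost without Q111-T replicate 1 (-1.27, adjusted p = 0.0647) and without Q111-T replicate 3 (-1.26, 0.0654). The other 9 genes lay between -0.57 ± 0.35 (Psmb10, adjusted p = 0.218) and 0.41 ± 0.20 (Tap1, adjusted p = 0.131). With TMM scaling 1 gene, Tap1, was higher in Q111-T without overlap and 1 gene, Psmb8, lower, against 25.8% and 22.9% of all genes. On the TPM scale Psme2 and Tapbp were higher without overlap too, 3 of 10 genes in all, against 33.9% of all genes on that scale. The signs of the uncalled differences depended on the fit, with 4 of 10 positive and a median of -0.16 in the fit given here, beside -0.03 for all genes. With limma on log2(TPM + 0.5), 7 of 10 were positive with a median of 0.39, beside 0.34 for all genes, and with limma on quantile-normalized values 7 of 10 were positive with a median of 0.35, beside -0.04. Without Q7-T replicate 2, on TMM, 6 of 10 were positive with a median of 0.17. Psme1 turned from -0.18 ± 0.39 to 0.62 ± 0.18 (adjusted p = 0.0215) without that library and to 0.56 ± 0.09 (0.000527) without the 3 length-dependent libraries, under 2-fold in each. Tap2 was at -0.55 ± 0.23 (adjusted p = 0.0808), and at -0.78 ± 0.17 (0.00485) and -0.64 ± 0.15 (0.00577) in the same fits, also under 2-fold.

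The response itself was compared between the lines by the interaction, the log2 fold change in Q111 cells minus that in Q7 cells. It was negative for all 10 genes, with a median of -1.27 beside -0.02 for all genes. Without Q7-T replicate 2 the median was -0.84, with Psme1 at -0.66 and Psmb10 at -0.86, and without the 3 length-dependent libraries it was -0.98. Medians were negative in other proteasome genes too, at -0.59 for Psmb5, Psmb6 and Psmb7 and -0.43 for 11 structural 20S subunits. They were -0.46 for 18 subunits of the 19S particle and -0.45 for 11 assembly factors and other caps. With 1 library left out Psmb5, Psmb6 and Psmb7 ranged from -1.37 to -0.43, -0.97 to 0.02 and -0.85 to -0.03. Of the 10 genes the interaction was called for 2, both lower, against 1.20% of all genes called lower and 3.52% called higher. These were Psmb8 (-2.74 ± 0.56, adjusted p = 0.0145) and Tap2 (-2.61 ± 0.33, adjusted p = 0.00119). Psme2 (-1.52 ± 0.47, adjusted p = 0.0923), Psme1 (-1.45 ± 0.55, 0.167), Psmb10 (-1.40 ± 0.49, 0.135), Erap1 (-1.14 ± 0.33, 0.0733) and Tapbp (-1.09 ± 0.31, 0.0688) had values beyond 2-fold that did not pass the adjusted p. Psmb9 (-0.82 ± 0.51, 0.416), Tap1 (-0.62 ± 0.29, 0.255) and Tapbpl (-0.30 ± 0.19, 0.436) had the smallest. The interaction uses the same Q7-C and Q111-C libraries as the comparison of untreated lines, so the higher untreated level and the smaller response of a gene are not separate measurements. For Tap2 the untreated difference was 2.06 and the treated one -0.55, and for Psmb8 they were 1.41 and -1.33.

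Both interaction calls held with every library left out, with Psmb8 between -3.00 and -2.15. Across the alternatives Psmb8 was called with values between -2.76 and -1.75, the smallest with limma on log2(TPM + 1), and Tap2 lost its call with limma on log2(TPM + 1) (-1.82, adjusted p = 0.0603). Calls were gained by Psmb10 and Psme2 without Q7-C replicate 1 (-1.79 and -2.02), by Tapbp without Q7-T replicate 1 (-1.24) and by Erap1 without Q7-T replicate 2 (-1.34). The sign was negative for all 10 genes in every fit. Without the 3 length-dependent libraries, a fit added after seeing the data, the SEs were smaller and 5 genes were called: Psmb8 (-2.38 ± 0.36, adjusted p = 0.00165), Tap2 (-2.74 ± 0.22, 6.51e-05), Psme2 (-1.74 ± 0.21, 0.000588), Psmb10 (-1.24 ± 0.15, 0.000594) and Erap1 (-1.03 ± 0.18, 0.00328). DESeq2 on all 12 libraries called 5 as well, with Tapbp in place of Psmb10.

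**Figure D4:**
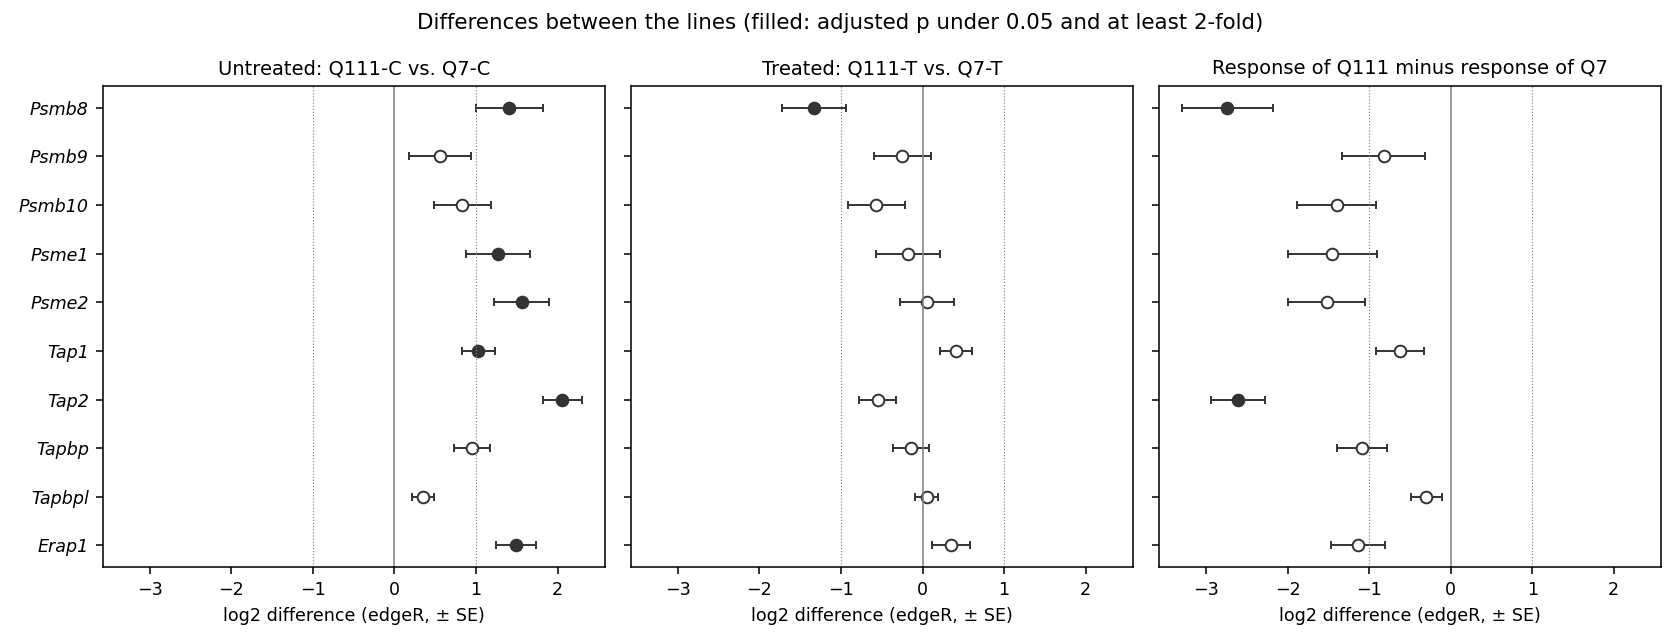
log2 difference ± SE between the lines for each gene, untreated (left), treated (middle) and as the difference of responses (right), with dotted lines at 2-fold and filled points for calls. All 10 points are above 0 untreated and below 0 in the right panel, and in the middle panel 9 of 10 lie between -0.57 and 0.41.

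The 3 length-dependent libraries moved the 10 genes unevenly. In Q7-T replicate 2, log2 TPM differed from the mean of the other 2 Q7-T libraries by 0.972 for Psme1, 0.656 for Psmb8, 0.551 for Psmb10 and 0.349 for Psmb9. It differed by -1.529 for Tap2, -1.370 for Erap1, -1.332 for Tap1 and -1.107 for Tapbpl. The inducible catalytic subunits and Psme1 were thus high, and Tap1, Tap2, Tapbpl and Erap1 low, in the same library. Tapbp (0.106) and Psme2 (0.131) moved little. By the length implied by its counts and TPM, Erap1 was the longest of the genes, at 1.87 times the median gene, and Psmb10 the shortest at 0.439 times, but Tapbpl, low in this library, was also short at 0.605 times. Relative to the 9 libraries, the largest effect on a Q7 response was that of Psme1, whose log2 fold change was 3.30 ± 0.42 with all libraries and 2.71 ± 0.09 without them. Why these libraries differ was not tested.

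**Figure D5:**
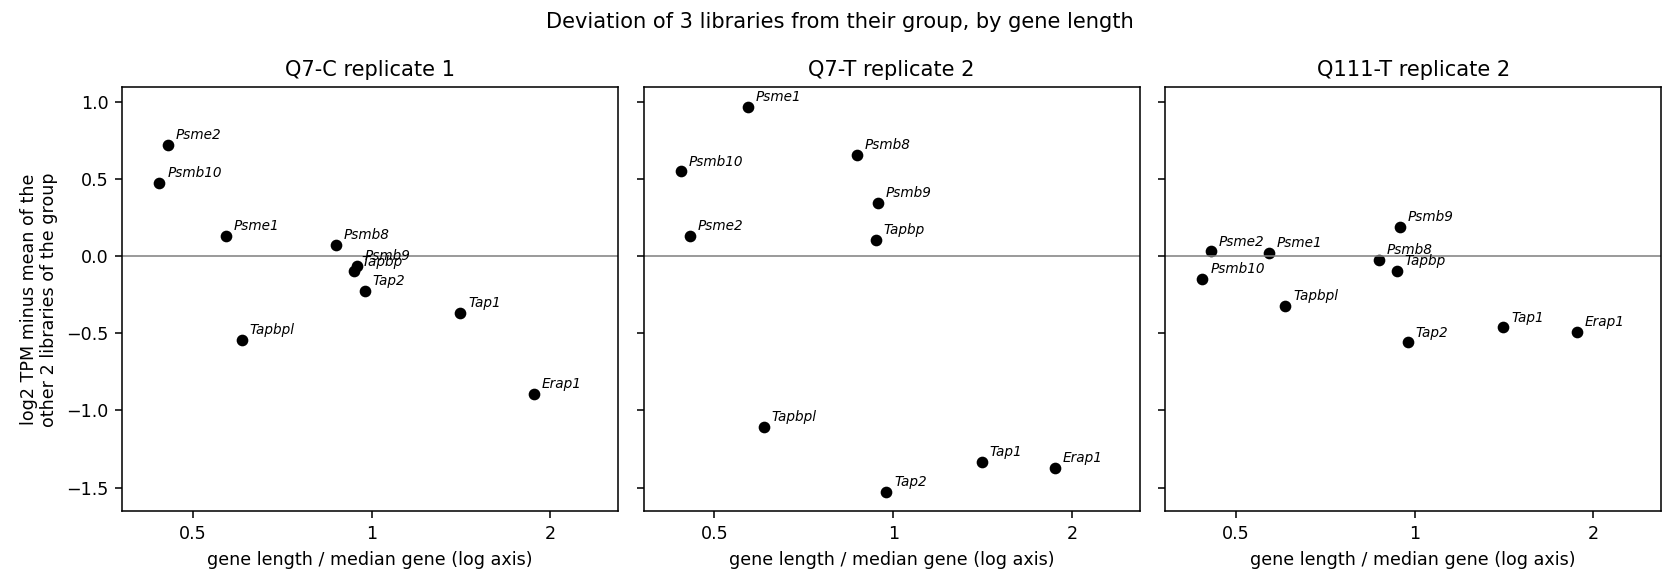
Difference in log2 TPM between 1 library and the mean of the other 2 of its group, for each gene, against gene length relative to the median gene (log axis), in Q7-C replicate 1, Q7-T replicate 2 and Q111-T replicate 2. In Q7-T replicate 2 the genes split, with Psme1 highest at 0.972 and Tap2 lowest at -1.529, while in Q111-T replicate 2 all lie between -0.558 and 0.191.

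Few other proteasome genes were called. Of 11 structural subunits of the 20S core, 18 subunits of the 19S regulatory particle and 11 assembly factors and other caps, 0 were called in either treatment comparison, against 2.93% of all genes higher and 1.11% lower in Q7 cells and 8.28% and 2.96% in Q111 cells, so counts of 0 in lists of this size lie near the background. Their median log2 fold changes were 0.47, 0.22 and 0.19 in Q7 cells and 0.04, -0.21 and -0.06 in Q111 cells. At their largest in Q7 cells these reached 1.07 ± 0.32 for Pomp, the maturation factor of new 20S cores (adjusted p = 0.0897). In Q111-T vs. Q7-T, 1 of 11 and 1 of 18 were called lower, against 11.2% of all genes, Psma3 (-1.16 ± 0.23, adjusted p = 0.00242) and the ATPase subunit Psmc4 (-1.12 ± 0.28, 0.00903), and without Q7-T replicate 2 these values were -0.82 and -0.68. Both were also under 2-fold in the 4 limma fits (-0.85 to -0.69 and -0.69 to -0.61) and in the 9-library fit (-0.93 and -0.69), and Psmc4 with length offsets (-0.89). None of the 9 endoplasmic reticulum chaperones of class I folding was called in any comparison, where between 1.11% and 13.3% of all genes were called in 1 direction, so 0 of 9 is near the background too.

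Of 8 other peptidases and related genes tested, 2 were called higher in Q7 cells and 0 in Q111 cells, against 2.93% and 8.28% of all genes, and the 0 is near its background. They were Lap3, a leucine aminopeptidase (1.14 ± 0.13 in Q7 cells, adjusted p = 0.000235, and 0.86 ± 0.13 in Q111 cells, 0.000806), and Wars, a tRNA synthetase carried in this list though no peptidase (1.5 ± 0.14, 3.07e-05, and 0.53 ± 0.14, 0.0172). Both passed the adjusted p in Q111 cells under 2-fold. Thop1, a cytosolic peptidase that degrades peptides, was lower in Q111-T vs. Q7-T (-1.35 ± 0.25, adjusted p = 0.00135), as was Wars (-1.88 ± 0.14, 2.38e-06). Thop1 fell under 2-fold without Q7-T replicate 2 (-0.99), in the 9-library fit (-0.90) and in 3 limma fits (-0.87 to -0.85). Lap3 lost its call in the 4 limma fits (0.92 to 0.93).

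The class I chains rose with the loading genes, 3 of 3 in both lines, against 2.93% of all genes called higher in Q7 cells and 8.28% in Q111 cells. H2-K1 was at 15.8, 15.0 and 12.4 TPM in Q7-C and 318.1, 207.8 and 265.3 in Q7-T, against 44.9, 56.3 and 54.5 in Q111-C and 881.5, 807.1 and 757.0 in Q111-T. No groups overlapped for H2-K1. Its log2 fold changes were 4.34 ± 0.23 and 4.08 ± 0.23, and in Q111-T vs. Q7-T it was higher by 1.23 ± 0.21 (adjusted p = 0.000763), where none of the 10 genes was called higher. H2-D1 rose by 3.82 ± 0.20 and 2.75 ± 0.20, and its interaction was called (-1.07 ± 0.26, adjusted p = 0.0344), a call lost in 10 of 12 fits that left out 1 library. B2m rose by 2.84 ± 0.30 and 3.12 ± 0.31, from 358.5 ± 25.4 TPM (SD, n = 3) in Q7-C to 2216 ± 127.9 in Q7-T and from 604.1 ± 48.2 in Q111-C to 4777 ± 1233 in Q111-T. H2-K1 and H2-D1 belong to a family of similar genes, so reads could be split among its members.

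Of 15 transcription factors of the pathway, 7 were called higher in Q7 cells and 8 in Q111 cells, against 2.93% and 8.28% of all genes. Lower were 0 in each, near the background of 1.11% and 2.96%. Nlrc5, the class I transactivator, rose by 5.48 ± 0.43 and 4.85 ± 0.42, and Irf1 by 4.15 ± 0.21 and 3.61 ± 0.20. Neither interaction passed (adjusted p = 0.548 and 0.281). Untreated, 4 of the 15 were called higher in Q111-C, against 7.62% of all genes: Irf9 (2.43 ± 0.16), Nlrc5 (1.82 ± 0.37), Stat2 (1.41 ± 0.25) and Irf1 (1.19 ± 0.19). In Q111-T vs. Q7-T, 3 of the 15 were called higher, against 13.3% of all genes: Irf2 (1.75 ± 0.24), Irf9 (1.75 ± 0.15) and Nlrc5 (1.19 ± 0.36, adjusted p = 0.0223). The Nlrc5 call was lost without Q7-T replicate 2 (0.87), Q111-T replicate 1 (1.10) or Q111-T replicate 3 (1.12). It was also lost in edgeR on the groups compared alone (1.21, adjusted p = 0.0554) and with length offsets (0.99). The untreated call of Nlrc5 was lost with limma on log2(TPM + 1) (1.20, adjusted p = 0.0844). Irf2 and Nfyb had positive interactions (1.47 ± 0.33, adjusted p = 0.0238, and 1.17 ± 0.30, 0.045), calls lost in 5 and 11 of those 12 fits, and were called higher only in Q111 cells. Nfkb1, a subunit of NF-κB, was called in Q7 cells (1.04 ± 0.23, adjusted p = 0.0208), and its call was lost in 4 fits that left out 1 library (Q7-C replicate 1 or 2, Q7-T replicate 1 or 3, with values of 0.86 to 1.07), in the 4 limma fits and in edgeR on the groups compared alone. Irf8 rose by 6.18 ± 0.45 and 6.23 ± 0.45. Ciita, the class II transactivator, was at 0 to 0.0376 TPM in the untreated libraries of both lines, at 0.917 to 2.30 TPM in Q7-T and at 0.317 to 1.04 TPM in Q111-T, and was called higher in both lines.

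The pattern of the 10 genes over the 12 libraries was summarized as the mean of their standardized log2(TPM + 0.5) values. Among 9767 other genes with a mean of at least 5 TPM, 8 of those most like it by Pearson's r were H2-D1 (0.997), Ube2l6 (0.992), H2-Q4 (0.989), H2-M3 (0.988), Nmi (0.988), Irgm2 (0.988), Serpina3g (0.987) and Chil1 (0.987). All 8 rose in both lines, from 3.22 (H2-M3) to 6.60 (Irgm2) on the log2 scale in Q7 cells and from 2.15 (Nmi) to 5.60 (Irgm2) in Q111 cells, and all 8 had negative interaction values, from -0.58 to -1.27. The 8 were chosen for likeness to a profile with these features, so the shared directions follow from the choice. Ube2l6 is the conjugating enzyme of the ubiquitin-like protein ISG15, and H2-Q4 and H2-M3 are class I genes. Within the set, each gene's r with the mean of the other 9 was between 0.93 (Psme2) and 0.995 (Tapbp). These correlations are descriptions over 12 libraries that fall into 4 groups, with the untreated and treated libraries apart.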

How the data were processed

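RNA-seq (TruSeq stranded libraries) was run on 12 libraries in 4 groups of 3. The authors trimmed reads with Cutadapt, aligned them with HISAT2 to GRCm38 (Ensembl release 101) and assembled and quantified them with StringTie. The deposited table holds TPM and estimated counts per gene. The count totals stand in for the depth, and how the counts were estimated is not given in the sources used here. Among low counts, multiples of 4 were 2.244 to 2.708 times as frequent as the average odd remainder, over the 12 libraries. A read pair may thus stand for several counts, and the totals may exceed the pairs sequenced. For this reason 1 alternative divided the counts by 4.

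Genes with at least 0.5 TPM in 3 libraries were tested with edgeR 4.0.16 (R 4.3.3) by the quasi-likelihood test on rounded estimated counts with TMM scaling over all 12 libraries, with Benjamini-Hochberg adjustment over 16127 genes. A call needed a change of 2-fold or more whose adjusted p was below 0.05. Every adjusted p in the text comes from edgeR unless limma 3.58.1 or DESeq2 1.42.0 is named. Shares were compared by exact two-sided permutation tests, for which 0.1 is the smallest p. Overlap between groups was judged on TMM-scaled counts unless TPM is named.

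The 10 genes, the gene lists and the tests were chosen with earlier results of these data known. All members are described, and a gene of another list is named where it was called in a comparison, or where it belongs to the constitutive subunits, the class I chains, Nlrc5 or Irf1. Pomp was named after its values were seen. Nrdc was not analysed here, and 1 item is not reported here and was left out of the lists. Alternatives covered size factors, DESeq2, filters, limma on log2(TPM + pseudocount), quantile normalization, counts divided by 4, a replicate block and leaving out each library. Length offsets, the 9-library fit and transcript-length shares were added after seeing the data. The scripts were tested on simulated data.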

Additional observations from a re-analysis of the deposited data

Results flagged for a closer look

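For 6 of the 88 tested genes of the set and the pathway lists the response to IFNγ/LPS differed between the lines by the interaction test in edgeR at an adjusted p under 0.05, without a minimum fold. Of all genes tested 919, or 5.7%, passed the same threshold, so a count of 6 of 88 is near the background. Of the immunoproteasome and peptide-loading genes these were Psmb8 (-2.74 ± 0.56, adjusted p = 0.0145) and Tap2 (-2.61 ± 0.33, 0.00119), both with a smaller rise in Q111 cells. Of the other genes of the pathway, H2-D1 (-1.07 ± 0.26, adjusted p = 0.0344) and the tRNA synthetase Wars (-0.96 ± 0.19, 0.0129, under 2-fold) had a smaller rise in Q111 cells. Irf2 (1.47 ± 0.33, adjusted p = 0.0238) and Nfyb (1.17 ± 0.30, 0.045) had a larger one. For Psmb8, Tap2 and H2-D1 the untreated level of Q111-C exceeded that of Q7-C, and the interaction uses the same untreated libraries. With the 2-fold minimum, the call of H2-D1 was lost in 10 of the 12 fits that left out 1 library and that of Nfyb in 11, while those of Psmb8 and Tap2 were lost in 0. Without Q7-T replicate 2, H2-D1 (-0.90, adjusted p = 0.0235) and Nfyb (0.95, 0.0243) were lost by the fold alone.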

How the results depend on the processing

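All 10 genes were called higher in both treatment comparisons under every alternative. The count of interaction calls, 2 in the text, was 5 with DESeq2, 4 with limma on log2(TPM + 0.5) or log2(TPM + 0.1), 6 with length offsets, 5 with 9 libraries and 2 to 4 with 1 library left out. In Q111-C vs. Q7-C, 6 in the text, it was 3 to 8 with 1 library left out. In Q111-T vs. Q7-T, 1 in the text, it was 0 in the 4 limma fits and with 9 libraries, and 0 to 1 with 1 library left out. The rise in inducible share in Q7 cells, 47.1 points in the text, was 49.7 from counts, 42.2 as the mean of the 3 pairs and 40.9 with transcript lengths. In Q111 cells, 42.2 in the text, it was 36.3 as the mean of the pairs and 36.3 with transcript lengths. The difference between untreated lines, 2.65 in the text, was 1.86 with transcript lengths. With 1 library left out these ranged from 46.8 to 47.4, 41.4 to 43.1 and 2.36 to 2.82, and the difference between treated lines from -3.06 to -1.33. No called value changed sign. Same-numbered libraries correlated between -0.582 and 0.45 in their deviations from the group means. Q7-C replicate 1 and Q7-T replicate 2, both length-dependent, correlated at 0.644. Such libraries weigh on these values, so they cannot show whether the numbers pair the libraries. With a replicate block the counts were 10, 10, 2, 6 and 1, as without it, and H2-D1, Irf2 and Nfyb lost their interaction calls (adjusted p = 0.0569, 0.0538 and 0.0825). Low counts limit the untreated level of Psmb8 and Psmb9, with 63 and 48 estimated counts in their lowest Q7-C libraries. These may stand for fewer read pairs.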
